A study of Mus musculus with 20 samples.

Results

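A set of 8 genes that mark the nerve cells and glia of the gut wall were followed in the cecum of mice fed the total Western diet (TWD) with raw potato starch (RPS). The genes were Elavl4, Tubb3, Uchl1, Nos1, Vip, Chat, Ret, and S100b, and were taken by name from a list drawn up with earlier results of these data known. All 8 were found among the 19887 genes of the count table, and all 8 passed the filter on low counts that left 15348 genes for testing. Cecal RNA came from 20 C57BL/6 mice, 5 on each of 4 diets. All mice ate the TWD, a rodent diet modelled on American nutrient intakes, for 6 weeks after weaning. For 3 more weeks they ate the TWD alone (0% RPS) or the TWD with 2, 5, or 10% RPS by weight. The labels of the RNA samples give no sex, and the age follows only from weaning and these feeding times. Mouse 1 to mouse 5 of a diet are names only.

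The enteric nervous system lies in a pair of plexuses, one between the muscle layers and one in the submucosa, and controls motility, secretion, and blood flow. Its neurons are supported by glia and can be sorted by transmitter: inhibitory motor neurons make nitric oxide and VIP, and excitatory motor neurons make acetylcholine and tachykinins. Both neurons and glia come from neural crest cells, whose entry into the gut depends on the receptor RET and its ligand GDNF. The RNA was taken from sections of the cecum, in which nerve cells lie beside epithelium, muscle, and immune cells. In such bulk samples, fewer cells of a type and less RNA per cell cannot be told apart.

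The 8 genes are protein-coding and lie on 6 chromosomes of GRCm39. Elavl4 (ENSMUSG00000028546) spans chr4:110060810-110209142 on the minus strand, and Tubb3 (ENSMUSG00000062380) spans chr8:124138163-124150092 on the plus strand. Uchl1 (ENSMUSG00000029223) at chr5:66832748-66845009 and Nos1 (ENSMUSG00000029361) at chr5:117918971-118096905 share chromosome 5 and the plus strand. Vip (ENSMUSG00000019772) at chr10:5589186-5599956 and S100b (ENSMUSG00000033208) at chr10:76085090-76097159 are both on the plus strand of chromosome 10. Chat (ENSMUSG00000021919) lies at chr14:32129369-32187946 and Ret (ENSMUSG00000030110) at chr6:118128706-118174769, both on the minus strand. Antisense long noncoding RNAs overlap exons of Elavl4, Uchl1, Nos1, and Chat in the annotation, and none of these RNAs has a row in the count table. Slc18a3, the vesicular acetylcholine transporter, is encoded within the span of Chat on the same strand and had 0 counts in all 20 mice, which allows up to 3 counts, or 0.20 CPM in the smallest library. The source texts do not say how reads from such shared stretches were assigned.

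The upstream sequences of 4 of the genes are shown because the levels of Nos1 and Uchl1 went up and down together from mouse to mouse, whereas Vip and S100b followed them weakly, as described below. Each sequence is the 250 bases before the start listed for the gene in the RefSeq table for GRCm38.p6. It is written 5′ to 3′ on the gene's own strand. The spans above are on GRCm39, and whether a listed start is the first start of its gene was not checked. The Nos1 window ends in a run rich in C and T followed by ag, so it may lie before an internal exon. Capitals mark a match, on either strand, to TGACG, known as the core of the cAMP response element, or to TATAAA, known as the TATA box. Nos1 is at chr5:117866589-117866838 (+), Uchl1 at chr5:66675871-66676120 (+), Vip at chr10:5638968-5639217 (+), and S100b at chr10:76253586-76253835 (+).

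Nos1: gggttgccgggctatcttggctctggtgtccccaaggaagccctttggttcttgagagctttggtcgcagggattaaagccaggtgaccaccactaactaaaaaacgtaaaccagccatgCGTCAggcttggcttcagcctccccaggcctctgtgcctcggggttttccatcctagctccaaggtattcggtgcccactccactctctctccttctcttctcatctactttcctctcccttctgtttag

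Uchl1: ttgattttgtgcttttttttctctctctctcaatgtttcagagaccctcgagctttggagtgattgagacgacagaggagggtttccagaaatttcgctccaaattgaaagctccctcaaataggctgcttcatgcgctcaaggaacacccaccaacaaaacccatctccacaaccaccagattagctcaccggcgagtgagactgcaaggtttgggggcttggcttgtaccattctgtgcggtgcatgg

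Vip: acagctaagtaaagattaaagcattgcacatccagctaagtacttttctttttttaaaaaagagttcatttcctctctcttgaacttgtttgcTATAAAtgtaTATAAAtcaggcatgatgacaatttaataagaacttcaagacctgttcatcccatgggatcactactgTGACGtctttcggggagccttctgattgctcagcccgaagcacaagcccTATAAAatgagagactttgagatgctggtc

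S100b: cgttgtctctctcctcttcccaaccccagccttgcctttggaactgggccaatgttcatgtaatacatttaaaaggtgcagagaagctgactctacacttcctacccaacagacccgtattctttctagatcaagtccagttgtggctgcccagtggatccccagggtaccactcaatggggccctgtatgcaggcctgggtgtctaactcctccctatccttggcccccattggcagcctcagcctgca

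Of the 8 genes, 7 matched an entry of the RefSeq table by symbol; Ret did not. TGACG was found in the windows of 4 of these 7 genes (Chat, Elavl4, Nos1, and Vip) and in 17.9% of the 27025 promoters of the same length. In Vip it began 79 bases before the listed start. In Nos1, whose window may not be its promoter, it lay on the other strand between 130 and 126 bases before the listed start. TATAAA was found in Vip alone of the 7, in 3 places, against 13.0% of all promoters. GGGCGG, the core of an Sp1 site, was found in Tubb3 alone, in 2 places, against 32.9% of all promoters. None of the 3 motifs is contained in another, and a match is a description of the sequence only.

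Vip and Uchl1 had the highest levels and Tubb3 the lowest when counts were scaled to library size and transcript length. The place of Vip rests on the length used: with all annotated exons it was at 1.81 CPM per kb, below Uchl1 at 5.43 and Ret at 2.00. Levels are given below as CPM (read counts relative to the scaled library total) per kb of the canonical transcript, over 20 mice. Vip, the relaxant and secretory peptide, was at 10.0 ± 2.56 CPM per kb (SD, n = 20), and Uchl1, the neuronal deubiquitinase also called PGP9.5, at 8.55 ± 1.91. Vip was the higher of this pair in 15 of 20 mice, and their ranges overlapped. Ret was at 2.59 ± 0.54 CPM per kb, below Uchl1 in all 20 mice. Nos1, the neuronal nitric oxide synthase, was at 1.63 ± 0.50 CPM per kb, and Elavl4, the neuronal RNA-binding protein HuD, at 1.29 ± 0.34. Ret was above Nos1 in each of the 20 mice although their ranges overlapped, and Nos1 was above Elavl4 in 17 mice. Elavl4 was above all 3 remaining genes without overlap. S100b, a calcium-binding protein of glia, was at 0.45 ± 0.18 CPM per kb and Chat, which makes acetylcholine, at 0.40 ± 0.12. S100b was the higher of this pair in 10 of 20 mice, so their order was not set by these data. Tubb3, the neuronal β-tubulin, was at 0.23 ± 0.12 CPM per kb and was below Chat in 17 mice.

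**Figure D1:**
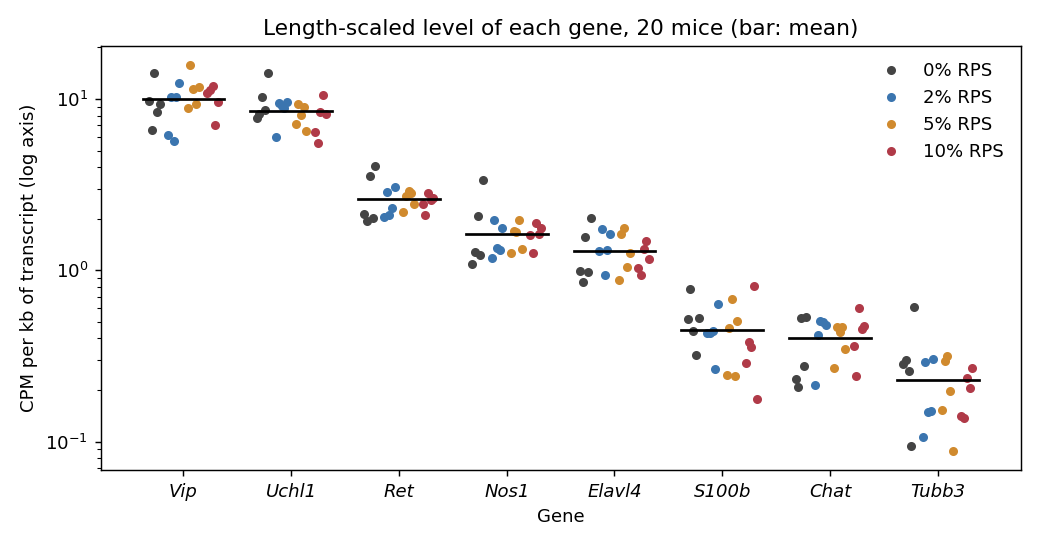
Level of each gene in CPM per kb of canonical transcript (log axis), with 1 point per mouse coloured by diet and the mean of 20 mice as a bar. Vip and Uchl1 lie at the top, and S100b, Chat, and Tubb3 lie below all mice of the other 5 genes.

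The 8 genes varied more between mice of a diet than the median gene did. For each gene the highest mouse was between 2.09 times (Ret) and 6.90 times (Tubb3) the lowest in CPM per kb. Tubb3 rested on 6 to 68 reads per mouse, S100b on 8 to 46, and Chat on 16 to 75, so their values carry the most counting error. Nos1 rested on 248 to 1190 reads and Ret on 241 to 808. Within diets the SD of log2 CPM was 0.31 for Ret and Uchl1 and 0.66 for Tubb3, against a median of 0.24 over all genes tested. The share of the variance of log2 CPM that lay between diets was 1.83% for Ret and 2.27% for Nos1, 17.0% for Uchl1 and 14.3% for Vip, against a median of 15.3% over all genes tested.

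None of the 8 genes passed the test in any comparison of diets (edgeR's quasi-likelihood test, with a fold change of 1.5 or more and a p of 0.05 or less after adjustment). With 10% RPS 0 of 8 passed, against 1.04% of the 15348 genes tested. With 5% RPS it was 0 of 8 against 0.195%, and with 2% RPS 0 of 8 against 0.0%. For the linear trend over the percentage of RPS, tested without a fold threshold, it was 0 of 8 against 1.11%, and for any difference among the 4 diets 0 of 8 against 0.0912%. These counts do not set the 8 genes apart from the background. At an unadjusted edgeR p under 0.05 the count was also 0 of 8 in each of these 5 tests, where 19.5% of all genes had such a p with 10% RPS, 13.3% with 5%, 5.77% with 2%, 18.8% for the trend, and 11.1% among the 4 diets. DESeq2 also called 0 of 8 in each, with 0 at an unadjusted p under 0.05. In no comparison with 0% RPS did the mice of the 2 diets separate for any of the 8 genes, where 4.88% of all genes separated with 10% RPS, 3.57% with 5%, and 1.09% with 2% RPS.

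**Figure D2:**
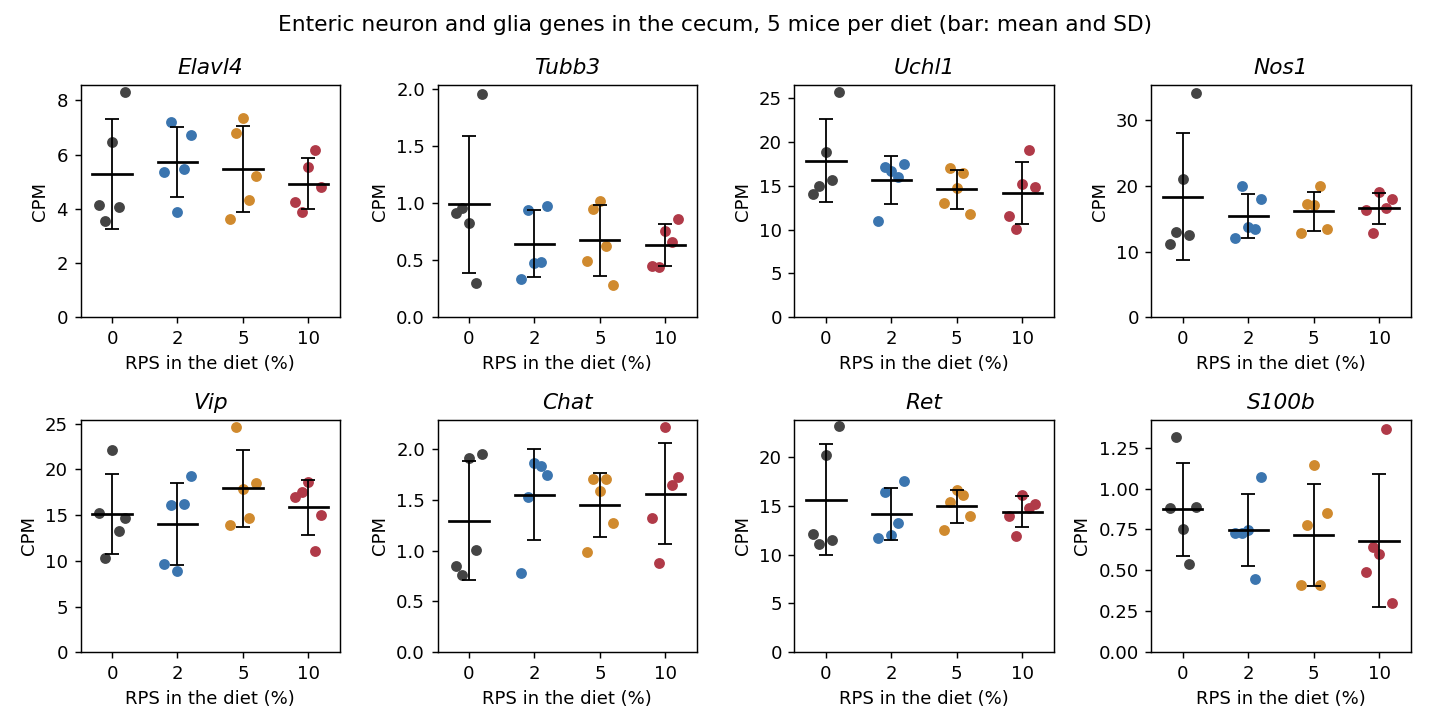
CPM of the 8 genes (vertical axes, each from 0) against the percentage of RPS in the diet, with 1 point per mouse and the mean ± SD of 5 mice. The diets overlap in every panel, and with 0% RPS mouse 5 lies highest for Nos1 at 34.1 CPM.

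Among the pan-neuronal genes, Uchl1 and Tubb3 had lower means on each RPS diet than on 0% RPS, and neither difference passed the test. Uchl1 in mice 1 to 5 was at 14.0, 14.9, 18.8, 15.6, and 25.6 CPM with 0% RPS and at 11.6, 10.0, 15.2, 19.1, and 14.8 CPM with 10% RPS. Mouse 5 on 0% RPS was above all others, and the remaining mice of both diets overlapped. The means of Uchl1 were 17.8 ± 4.73, 15.6 ± 2.68, 14.6 ± 2.22, and 14.1 ± 3.51 CPM (SD, n = 5) with 0, 2, 5, and 10% RPS. With 10% RPS its log2 fold change in edgeR was -0.34 (SE 0.18, 95% interval -0.72 to 0.04, adjusted p = 0.32), and without mouse 5 on 0% RPS it was -0.15. With 5% RPS it was -0.29, and -0.11 without that mouse. With 2% RPS it was -0.19, and -0.0064 without that mouse. Its slope was -0.031 per percent RPS in the edgeR fit (adjusted p = 0.32), and -0.017 without mouse 5 on 0% RPS. Tubb3 was at 0.91, 0.96, 0.83, 0.30, and 1.95 CPM with 0% RPS and at 0.45, 0.44, 0.76, 0.66, and 0.86 CPM with 10% RPS. Here the same mouse 5 was highest and mouse 4 on 0% RPS was lower than every mouse on 10% RPS. The log2 fold change of Tubb3 with 10% RPS in edgeR was -0.65 (SE 0.41, 95% interval -1.52 to 0.21, adjusted p = 0.40), and without mouse 5 on 0% RPS it was -0.23. With 2% RPS it was -0.60, and -0.18 without that mouse. Elavl4 differed little between the means, at 5.30 ± 2.03 CPM with 0% RPS, 5.73 ± 1.30 with 2%, 5.47 ± 1.59 with 5%, and 4.93 ± 0.94 with 10% RPS. Its log2 fold change with 10% RPS was -0.11 (SE 0.24, edgeR adjusted p = 0.84).

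Nos1 and Vip, the enzyme and the peptide of inhibitory neurons, did not pass with any dose. Nos1 was at 11.2, 13.0, 21.1, 12.6, and 34.1 CPM with 0% RPS and at 16.4, 12.9, 19.2, 16.7, and 18.04 CPM with 10% RPS. The diet without RPS held both the lowest and the highest of these 10 mice. The means of Nos1 were 18.4 ± 9.62 CPM with 0% RPS and 16.6 ± 2.39 CPM with 10% RPS (SD, n = 5), a log2 fold change of -0.15 in edgeR (SE 0.24, 95% interval -0.66 to 0.36, adjusted p = 0.78). Without mouse 5 on 0% RPS, whose library held 38064842 counts, it turned to 0.21. Vip was at 15.3, 10.3, 22.1, 13.2, and 14.6 CPM with 0% RPS, at 13.9, 24.6, 17.9, 14.7, and 18.5 CPM with 5% RPS, and between 11.1 and 18.6 CPM, with a median of 17.0, with 10% RPS. Its mean was highest with 5% RPS at 17.9 ± 4.23 CPM, and the 3 diets overlapped. The log2 fold change of Vip in edgeR was 0.25 with 5% RPS (SE 0.22, adjusted p = 0.71) and 0.07 with 10% RPS (SE 0.22, adjusted p = 0.90). With 1 mouse left out, the estimate with 5% RPS lay between 0.10 (mouse 2 on 5% RPS) and 0.42 (mouse 3 on 0% RPS). Vip on 0% RPS was highest in mouse 3, and mouse 5, the highest of that diet for 6 of the other 7 genes, was at 14.6 CPM.

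Chat, the cholinergic gene, had a higher mean on each RPS diet, within the spread of the mice. It was at 0.85, 0.76, 1.91, 1.01, and 1.95 CPM with 0% RPS and at 1.32, 0.88, 2.21, 1.65, and 1.73 CPM with 10% RPS. On 0% RPS mice 3 and 5 were the highest and the other 3 were at 1.01 CPM or less. The log2 fold change of Chat with 10% RPS was 0.26 in edgeR (SE 0.31, 95% interval -0.38 to 0.89, adjusted p = 0.68). With 1 mouse left out it was between 0.09 (mouse 3 on 10% RPS) and 0.47 (mouse 5 on 0% RPS).

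Ret, the GDNF receptor, was nearly level over the diets, with means of 15.7 ± 5.65, 14.2 ± 2.64, 14.95 ± 1.68, and 14.4 ± 1.58 CPM (SD, n = 5). With 0% RPS it was at 12.2, 11.1, 20.3, 11.5, and 23.2 CPM, again with mice 3 and 5 above the rest, and with 10% RPS it was at 13.9, 11.9, 16.2, 14.7, and 15.2 CPM. The log2 fold change with 10% RPS was -0.12 in edgeR (SE 0.18, 95% interval -0.50 to 0.26, adjusted p = 0.76), and without mouse 5 on 0% RPS it was 0.08. S100b, the glial member, was at 0.88, 1.31, 0.75, 0.54, and 0.89 CPM with 0% RPS and at 0.49, 0.65, 0.60, 1.37, and 0.30 CPM with 10% RPS. Mouse 4 on 10% RPS was the highest of these and the other 4 on that diet were below 4 of the 5 mice on 0% RPS. The log2 fold change of S100b was -0.38 in edgeR (SE 0.37, 95% interval -1.15 to 0.39, adjusted p = 0.61), and -0.75 without mouse 4 on 10% RPS (adjusted p = 0.23 in edgeR).

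With 10% RPS the 95% interval lay within 1.5-fold in either direction for 2 of the 8 genes, Ret and Vip, against 60.5% of all genes tested. With 5% RPS it did so for 2 of 8 (Elavl4 and Ret) against 63.5%, and with 2% RPS for 3 of 8 (Uchl1, Ret, and Vip) against 67.7%. With 10% RPS it reached beyond 1.5-fold for the other 6, in 1 direction each: a decrease of that size was not excluded for Elavl4, Uchl1, Nos1, Tubb3, and S100b, and an increase of that size was not excluded for Chat. By direction, 6 of the 8 estimates with 10% RPS were below 0, against 49.1% of all genes, with a median log2 fold change of -0.14. With 5% RPS it was 5 of 8 against 50.5%, with 2% RPS 6 of 8 against 49.0%, and for the slope 6 of 8 against 49.5%. The direction with 10% RPS rested on 1 mouse: without mouse 5 on 0% RPS, 3 of the 8 estimates were below 0 and the median was 0.08. With any other mouse left out, 6 or 7 of 8 were below 0 with 10% RPS and the median was between -0.24 and -0.06. The other comparisons also moved without mouse 5 on 0% RPS. Below 0 were then 3 of 8 with 5% RPS (median 0.15), 4 of 8 with 2% RPS (median 0.02), and 4 of 8 for the slope (median 0.0027).

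**Figure D3:**
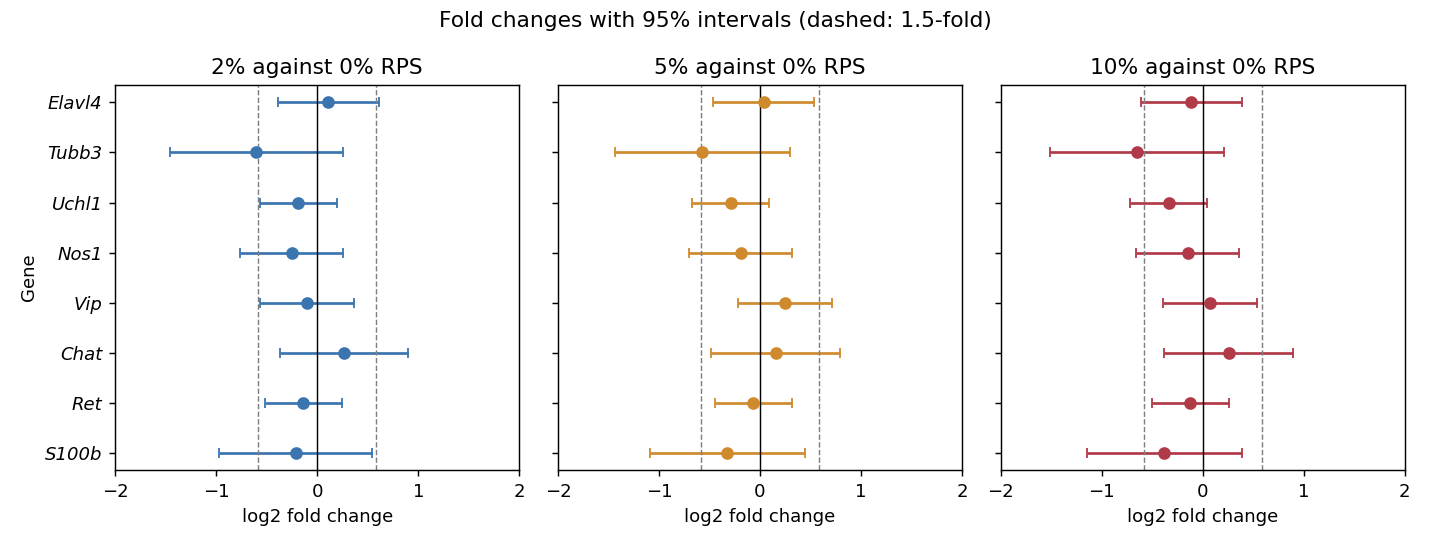
Log2 fold change (horizontal axis) of each gene with 2, 5, and 10% against 0% RPS, with 95% intervals from the edgeR fit and dashed lines at 1.5-fold. Every interval crosses 0, and those of Tubb3, S100b, and Chat are the widest.

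A group of 6 of the 8 genes varied together from mouse to mouse within the diets. Pearson's r was computed over 20 mice on log2 CPM centred by diet, for all 28 pairs, with two-sided p from 100000 permutations within diets and adjustment over the 28. The values of a pair share a library and its scaling. The 14 pairs with an adjusted p of at most 0.05 all lay among Nos1, Ret, Uchl1, Chat, Elavl4, and Tubb3, a grouping made after the values were seen. The share of pairs of other genes that would pass was not computed, so this count does not set the 8 genes apart. In the 15 pairs of these 6 genes r was between 0.52 and 0.94, with a median of 0.74. Nos1 and Ret were closest, with r = 0.94 (permutation p = 2e-05, adjusted 0.00028) and Spearman's rho = 0.97 (permutation p = 1e-05, the smallest the draws can give, adjusted 0.00014). Without the 2 mice farthest from the median of Ret, r of this pair was 0.87. In the pairs below the 2 mice were chosen on the gene named first, so they can differ between pairs. Mouse 5 on 0% RPS was the highest of its diet for each of the 6 genes. Elavl4 and Ret had r = 0.85 (permutation p = 6e-05, adjusted 0.00056) and rho = 0.79 (permutation p = 0.00032, adjusted 0.0022), and r = 0.77 without 2 mice. Uchl1 and Chat, a pan-neuronal and a cholinergic gene, had r = 0.84 (permutation p = 0.0002, adjusted 0.00093) and rho = 0.77 (permutation p = 0.00052, adjusted 0.0029), and r = 0.77 without 2 mice.

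Vip and S100b followed the others less closely, and none of their 13 pairs passed the adjustment. For Vip and the 6 genes r was between 0.15 with Uchl1 and 0.54 with Ret. The r of Vip and Nos1, which mark overlapping inhibitory neurons, was 0.34 (permutation p = 0.20, adjusted 0.28), with rho = 0.40 (permutation p = 0.12, adjusted 0.19). It was 0.25 without the 2 mice farthest from the median of Vip. For S100b and the other 7 genes r was between -0.07 with Vip and 0.38 with Elavl4. With the 13 other glial genes r of S100b over the 20 mice was between -0.31 with Gfap, an intermediate filament protein, and 0.31 with Ncam1, an adhesion molecule. It was 0.15 with Sox10, the transcription factor of glia. S100b had 8 to 46 reads per mouse, and whether counting error lowered its r was not tested.

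**Figure D4:**
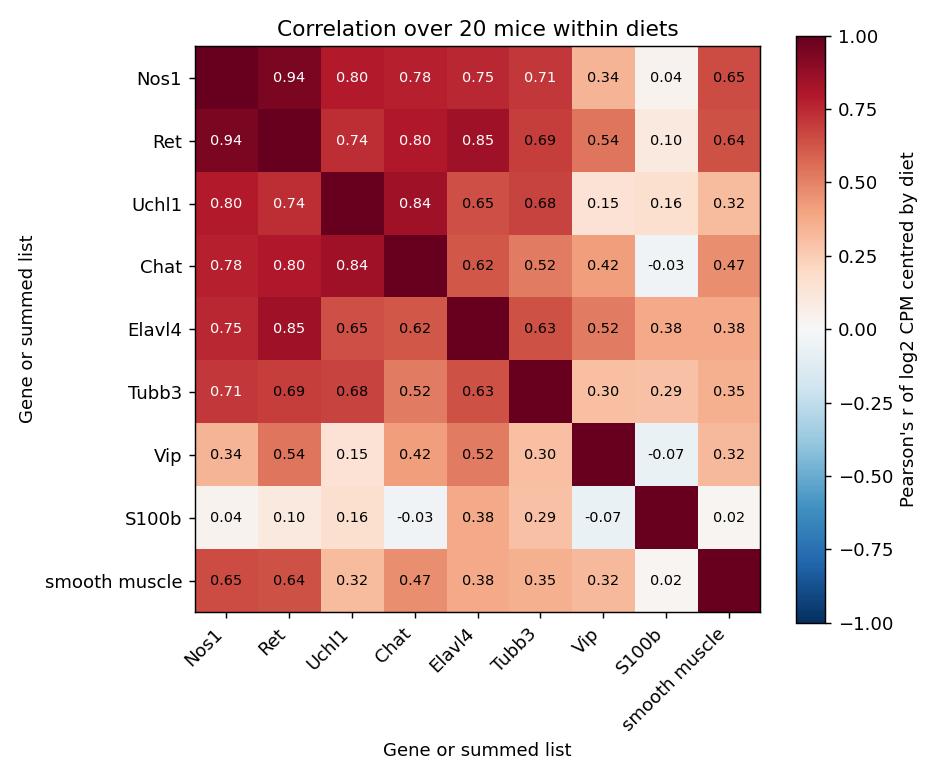
Pearson's r over 20 mice of log2 CPM centred by diet, for each pair of genes and for the summed smooth muscle list. The block of 6 genes at the top left has r of 0.52 to 0.94, and S100b lies near 0 with most others.

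The 10 genes whose pattern was most like that of the 8 included Stmn2 and Snap25 of the neuronal list, and the other 8 were in none of the lists. The measure was Pearson's r, over 20 mice, of each gene's diet-centred log2 CPM with the mean of the 8 genes after scaling each to unit SD, as a description. The highest were Scg2 (0.93), a granin of secretory granules, Stmn2 (0.93), a regulator of axonal microtubules, and Ltk (0.92), a receptor tyrosine kinase. Next came Pirt, the microtubule protein Map1b, the SNARE protein Snap25, the nicotinic receptor subunit Chrna3, the axonal kinesin Kif5a, Scg3, and Ndn, with r between 0.885 (Ndn) and 0.901 (Pirt). Of these 10 genes none was called with 10% RPS in edgeR. The median r was 0.68 for 22 other enteric neuron genes, 0.49 for 13 glial genes, 0.55 for 12 smooth muscle genes, 0.47 for 3 genes of interstitial cells of Cajal, 0.32 for 6 fat cell genes, and -0.05 for 9 epithelial genes, against -0.01 for all genes outside the 8.

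The smooth muscle genes, which mark the layers around the plexuses, had estimates above 0 where 6 of the 8 nerve genes (3 without mouse 5 on 0% RPS) had estimates below 0, a difference between the lists that was not tested. With 10% RPS all 12 genes of the muscle list had estimates above 0, where 49.1% of all genes were below 0. Their median log2 fold change was 0.52 (0.80 without mouse 5 on 0% RPS). By edgeR 2 of 12 were called, against 1.04% of all genes tested: Actg2, the enteric γ-actin (1.28, SE 0.30, adjusted p = 0.036), and Synpo2 (0.88, SE 0.22, adjusted p = 0.041). Cnn1 was at 0.86 (SE 0.27, edgeR adjusted p = 0.091) and Smtn at 0.69 (SE 0.24, edgeR adjusted p = 0.12). Without 1 mouse at a time the calls of Actg2 and Synpo2 were lost in 7 and 11 of 20 fits, respectively, with adjusted p of 0.012 to 0.12 and 0.018 to 0.13 in edgeR. With 5% RPS all 12 muscle genes were also above 0, with a median of 0.75, and 1 was called against 0.195% of all genes. The summed level of the muscle list was between 3756 and 8536 CPM with 0% RPS, 4998 and 8651 with 2%, 6247 and 13650 with 5%, and 6074 and 9849 with 10% RPS. With 0% RPS the highest of these was mouse 5, the mouse in which Nos1 and Ret were also highest.

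Within diets, 2 of the 8 genes, Ret and Nos1, had a permutation p under 0.05 for their relation to the muscle level, against 21.3% of the 15336 genes outside the muscle list, so this count does not set the 8 apart. For Ret r was 0.64 over 20 mice (permutation p = 0.0036, adjusted over the 8 genes 0.024) and rho was 0.59 (permutation p = 0.0070, adjusted 0.051). For Nos1 r was 0.65 (permutation p = 0.0059, adjusted 0.024) and rho was 0.56 (permutation p = 0.013, adjusted 0.051). Without the 2 mice with the most extreme muscle level, r was 0.60 for both. Without mouse 5 on 0% RPS it was 0.48 for Ret and 0.47 for Nos1 (both with an adjusted permutation p of 0.21). The adjusted permutation p was also above 0.05 for both genes when mouse 3 on 0% RPS (0.051) or mouse 1 on 5% RPS (0.053) was left out, and for Nos1 when mouse 4 on 5% RPS was (0.064). For the remaining 6 genes r was between 0.02 (S100b) and 0.47 (Chat), with adjusted permutation p of 0.15 to 0.94, and rho was between 0.01 and 0.44. Without the 2 mice, their r was between 0.22 (Uchl1) and 0.45 (Elavl4), with S100b at 0.34.

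With the muscle level as a covariate in the edgeR fit, the estimates of all 8 genes with 10% RPS were below 0 and none was called. The muscle level was itself higher with 10% than with 0% RPS and had r between 0.32 and 0.65 with 7 of the 8 genes within diets, and the adjustment lowered the estimates of these 7. S100b, with r of 0.02, went from -0.38 to -0.35. On the log2 scale Nos1 was at -0.49 (SE 0.21, edgeR adjusted p = 0.20), Ret at -0.39 (SE 0.17, edgeR adjusted p = 0.21), Uchl1 at -0.47 (SE 0.20, edgeR adjusted p = 0.20), and Tubb3 at -0.98 (SE 0.44, edgeR adjusted p = 0.21). These 4 of 8 had an unadjusted p under 0.05, where 20.6% of all genes did in the same fit. With 5% RPS the same 4 of 8 did against 9.28%, with 2% RPS 1 of 8 (Nos1) against 5.67%, and for the slope 1 of 8 (Uchl1) against 18.6%. In these fits 0 of all genes tested were called. Nos1, Ret, Uchl1, and Tubb3 varied together within diets, so they are not separate results and their count cannot be weighed against a share of single genes. The fit with the covariate was not repeated with a mouse left out.

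Other genes of the enteric nervous system were taken from lists of neuronal, transmitter, glial, and growth factor genes. Of 24 other neuronal genes, 22 were tested, and 19 had estimates below 0 with 10% RPS, against 49.1% of all genes. Their median log2 fold change was -0.30, against 0.00 over all genes. Without mouse 5 on 0% RPS 12 of 22 were below 0, with a median of -0.06. Of the 22, 1 was called in edgeR, against 1.04% of all genes tested. The shares of 1.04% called and 49.1% below 0 are also those for the lists below. The gene called was Phox2a, a homeobox gene of autonomic neurons, at -1.72 (SE 0.41, edgeR adjusted p = 0.035). Phox2a was at 6.32, 0.88, 1.46, 1.51, and 3.87 CPM with 0% RPS and between 0.62 and 1.23 CPM with 10% RPS. Mice 1 and 5 on 0% RPS were above all others, and mouse 2 lay within the range of the mice on 10% RPS. Without 1 mouse at a time its fold change was between -1.95 and -1.19, and the call was lost in 8 of 20 fits, namely when mouse 1, 3, 4, or 5 of the 0% RPS diet or mouse 1, 2, 3, or 5 of the 10% RPS diet was left out. Its edgeR adjusted p over the 20 fits was between 0.016 and 0.11. Elavl3, a relative of Elavl4, was at -0.49 (SE 0.24, edgeR adjusted p = 0.27), Stmn3 at -0.57 (SE 0.25, edgeR adjusted p = 0.22), and Tbx3 at -0.27 (SE 0.10, edgeR adjusted p = 0.14).

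Among inhibitory transmitter genes, 4 of 5 were tested and 0 were called with 10% RPS, with Gal, encoding galanin, at 0.40 (SE 0.25) and Nos1ap, an adaptor of NOS1, at -0.86 (SE 0.26, edgeR adjusted p = 0.079). Adcyap1, encoding PACAP, was at 0.41 (SE 0.42), on 3 to 17 reads per mouse, and Cartpt at 0.03 (SE 0.29). Among 10 tested of 13 excitatory, sensory, and aminergic genes, 0 were called. Slc5a7, the choline transporter that supplies CHAT, was at -0.10 (SE 0.31) and Tac1, the substance P precursor, at -0.07 (SE 0.22). Dbh, which makes noradrenaline, was at -0.94 (SE 0.48, edgeR adjusted p = 0.28) and Penk, the enkephalin precursor, at -0.55 (SE 0.29, edgeR adjusted p = 0.29). Dbh rested on 1 to 69 reads per mouse. Of 13 glial genes 0 were called and 11 had estimates below 0 (median -0.11). Without 1 mouse the glial median was between -0.26 (mouse 2 on 0% RPS) and 0.12 (mouse 5 on 0% RPS), and without the latter 5 of 13 were below 0. Fabp7, a fatty acid-binding protein of glia, was at -1.13 (SE 0.44, edgeR adjusted p = 0.17), Cdh19 at -0.32 (SE 0.30), Ncam1 at -0.20 (SE 0.14), and Erbb3 at 0.18 (SE 0.12). Fabp7 rested on only 2 to 28 reads per mouse. Sox10 was detected in every mouse at 1.46 to 6.91 CPM and Gfap at 1.79 to 5.68 CPM. Erbb3 in this list was at 328 to 560 CPM and L1cam in the neuronal list at 169 to 263 CPM, levels far above the other members, and both are also expressed by epithelial cells.

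Of 12 genes of GDNF and endothelin-3 signalling, 0 were called, and 6 estimates were above and 6 below 0, with 3 below 0 without mouse 5 on 0% RPS. Gdnf, the ligand of RET, was at 0.06 (SE 0.21), its co-receptor Gfra1 at -0.34 (SE 0.25), Gfra2 at 0.21 (SE 0.22), and Edn3, endothelin-3, at 0.49 (SE 0.23, edgeR adjusted p = 0.24). Of 14 receptors and effectors for the transmitters, 0 were called. Chrm2, the muscarinic receptor of smooth muscle, was at 0.66 (SE 0.20, edgeR adjusted p = 0.079), Tacr1, the substance P receptor, at -0.61 (SE 0.23, adjusted p = 0.17), Gucy1b1, a subunit of the nitric oxide receptor, at 0.23 (SE 0.18, adjusted p = 0.51), and Vipr1, a VIP receptor, at -0.05 (SE 0.08, adjusted p = 0.77).

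**Figure D5:**
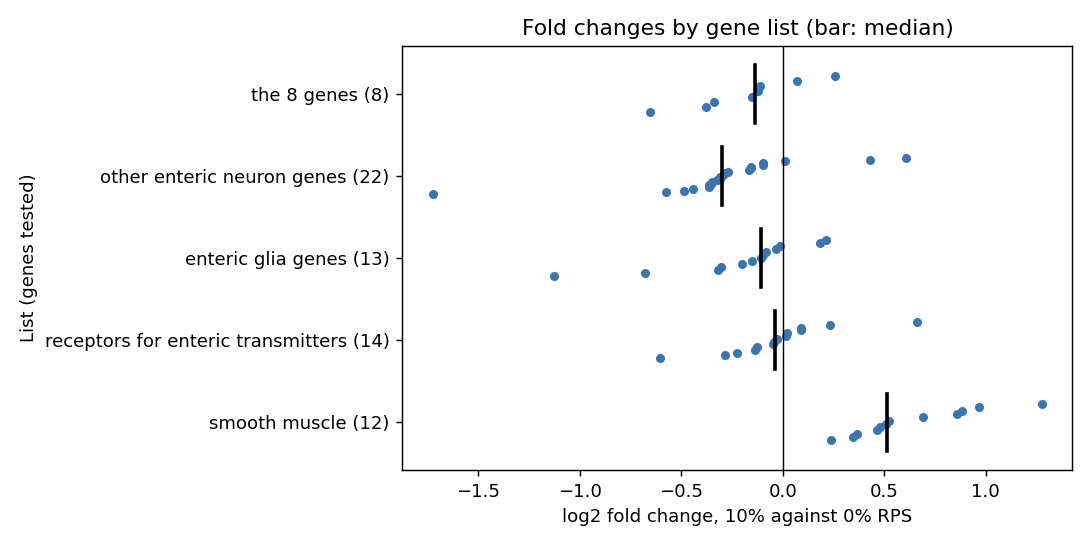
Log2 fold change with 10% against 0% RPS (horizontal axis) of the tested genes of 5 lists, 1 point per gene with the list median as a bar. The smooth muscle genes all lie above 0 with a median of 0.52, and the 8 genes have a median of -0.14.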

How the data were processed

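Cecal RNA of 20 mice was measured by RNASeq. Libraries were stranded and poly(A)-selected, and reads were single-end. Per the study's methods, the authors trimmed bases of low quality, dropped reads with several ambiguous bases, and mapped the rest to GRCm39 with the CLC Genomics Workbench. They deposited raw counts per gene. The annotation release, the strand setting, and the treatment of multi-mapping reads are not given in the sources used here. Total counts per mouse were between 14967798 and 42687283, and intervals cover counting error and the spread between these mice only. The labels give each mouse its diet.

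Gene names, coordinates, and canonical transcript lengths came from GENCODE release M39, in which 19827 of 19887 identifiers were found. Genes were filtered with filterByExpr (minimum count 10, minimum total 15), scaled by TMM, and fitted over 4 diets with the robust quasi-likelihood model of edgeR 4.0.16 in R 4.3.3, with Benjamini-Hochberg adjustment over 15348 genes. The script was tested on simulated data. CPM were TMM-scaled, and log2 CPM used a prior count of 2. Correlations used numpy 2.4.6 and scipy 1.17.1. Alternatives were DESeq2 1.42.0 (size factors and tests), no filter, at least 10 counts in every mouse, no robust step, the muscle level as a covariate, only 2 diets, dose ranks, no fold threshold, each mouse left out, and for correlations a prior count of 0.5. From the nerve, signalling, and muscle lists the genes called and up to 4 with the lowest trend p were named, with a few others by their role, and other cell types are given by counts and medians. The members and lists were chosen with earlier results of these data known.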

Additional observations from a re-analysis of the deposited data

Results flagged for a closer look

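Uchl1 was at 10.9 CPM in mouse 1 on 2% RPS, and the other 4 mice on that diet were between 15.98 and 17.5 CPM. The gap to the nearest mouse was 0.77 of the range of the group, where Dixon's 95% critical value for 5 values is 0.71. This was 1 flag in 32 groups checked (8 genes in 4 diets), and chance flags about 1 in 20. In the same mouse Chat was at 0.78 CPM, Nos1 at 12.1 CPM, Tubb3 at 0.34 CPM, and Ret at 11.7 CPM, each the lowest of its diet, whereas Elavl4 at 5.35 CPM, Vip at 9.68 CPM, and S100b at 0.73 CPM were not.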

How the results depend on the processing

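In no alternative was any of the 8 genes called, in any comparison. The lowest adjusted p was 0.14 (slope of Uchl1, edgeR, without mouse 4 on 10% RPS). Of 216 fold changes and slopes under alternatives that kept all mice, 6 reversed, all with the smooth muscle level as a covariate: Elavl4 with 5% RPS (-0.23), Vip with 10% RPS (-0.12) and its slope (-0.0053), and Chat with 10% RPS (-0.043), with 5% RPS (-0.25), and its slope (-0.0072). In the fits with a mouse left out, 21 of 640 reversed, of which 9 were in fits without mouse 5 on 0% RPS. For 10, 5, and 2% RPS the log2 fold changes ranged over -0.23 to 0.12, -0.090 to 0.27, and -0.0067 to 0.34 for Elavl4, over -0.22 to 0.078, -0.17 to 0.13, and -0.24 to 0.055 for Ret, and over -0.29 to 0.21, -0.33 to 0.17, and -0.39 to 0.10 for Nos1. For Vip they ranged over -0.036 to 0.25 with 10% RPS and -0.25 to 0.074 with 2% RPS. The slope ranged over -0.014 to 0.0068 for Ret and -0.016 to 0.0191 for Nos1. The number of genes with an adjusted permutation p under 0.05 for the relation to the muscle level ranged from 0 to 2, with 0 without mouse 3 or 5 on 0% RPS or mouse 1 on 5% RPS, and r of S100b ranged from -0.11 to 0.21 with 1 mouse left out. Phox2a was not called with the muscle covariate (-1.85, edgeR adjusted p = 0.083) or with only 2 diets in the fit (-1.72, edgeR adjusted p = 0.10), and Synpo2 was not called without a filter on low counts (0.89, edgeR adjusted p = 0.052). Synpo2 and Actg2 were not called with the muscle covariate (0.35 and 0.52), of which they are part, so each was adjusted for itself. Other causes were not tested. At least 10 counts in every mouse left out Tubb3 and S100b, so these have no value there. With the length of all annotated exons, added after seeing the data, Vip was at 1.81 CPM per kb, below Uchl1 at 5.43 and Ret at 2.00, and Chat was at 0.24. Leaving out mice for the direction of the gene lists was also added after seeing the data. No paired analysis was possible because no mouse number in the labels occurs in more than 1 diet.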

Other observations

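Cell types around the plexuses were followed by lists of their markers, with estimates for 10% against 0% RPS. Of all genes tested, 1.04% were called and 49.1% had estimates below 0 in this comparison. The 3 markers of interstitial cells of Cajal, the pacemaker cells of the gut, were not called, with Kit at 0.11 (SE 0.10), Ano1 at -0.09 (SE 0.15), and Etv1 at -0.10 (SE 0.19). All 9 epithelial genes had estimates below 0 (median -0.18) with 0 called. All 6 macrophage genes were above 0 (median 0.28) with 0 called, and the median was 0.45 when mouse 2 on 0% RPS was left out. With mouse 3 on 0% RPS left out, 1 of 6 was below 0. All 6 fat cell genes were below 0 (median -0.75) with 0 called, but the median rested on single mice: with mouse 1 on 0% RPS left out it was -0.05 with 4 of 6 below 0, whereas leaving out mouse 4 on 10% RPS gave -2.36 and leaving out mouse 1, 3, or 5 on 10% RPS gave -0.47 to -0.49. Of 7 tested enteroendocrine genes, which share secretory proteins with neurons, 6 were above 0 and 0 were called (median 0.08, and 0.01 with 3 of 7 below 0 when mouse 3 on 10% RPS was left out). Of 8 tuft cell genes 6 were above 0 (median 0.16) and 0 were called. With 1 mouse left out this median was between 0.054 (mouse 4 on 0% RPS) and 0.30 (mouse 2 on 10% RPS), and 4 of 8 were below 0 when mouse 4 on 0% RPS or mouse 4 on 10% RPS was left out. The B and T cell list had a median of 1.23 (2.29 without mouse 2 on 0% RPS) with 0 of 8 called, and its summed level was between 14.9 and 185 CPM with 0% RPS and between 19.5 and 230.0 CPM with 10% RPS. Both tested mesothelial genes were above 0 and 0 were called, and without 1 mouse up to 2 of 3 tested were below 0.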
